A study of Mus musculus with 6 samples.

Results

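This account covers 9 mouse genes of cholinergic and motor neurons, Chat, Slc18a3, Slc5a7, Ache, Isl1, Isl2, Mnx1, Lhx3 and Lhx4, in whole embryos that carry an altered Stat3 allele. The set was put together round Chat, which was chosen by its far lower signal in homozygous than in wild-type embryos, and the other genes were added for their function. Every gene probe whose accession maps to one of these symbols was taken, which gave 10 of the 39429 probes and 8 of the 24573 genes tested. A probe without a symbol was counted as a gene of its own, here and in every share of all genes below. Mnx1 had no matching probe and was not analysed here. The embryos were day 12, and 2 of each genotype were compared: homozygous for STAT3-K177K180R, heterozygous for it, and wild type. The allele name denotes arginine in place of lysine in STAT3, a transcription factor activated by cytokines and growth factors, and per the series title the study asked how the allele affects development. Per a protocol field the genotypes were womb mates, while the design text speaks of independent experiments, so how many litters the 6 embryos came from is not settled. Each embryo gave total RNA for 1 one-colour Agilent array. The labels name no promoter, Cre driver or breeding background. One protocol field speaks of tumor tissue and one genotype field calls the wild type a mutant, and the sample titles were followed. The tests measure only the spread between these embryos.

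The values below are log2 signals after subtraction of the 75th percentile of the array, so 0 is the level of that percentile and a difference of 1 is a 2-fold difference. That percentile was 860 and 785 signal units in homozygous embryos and 1037 to 1263 in the other 4, and each array had 72% to 78.3% of its gene probes well above background. Both homozygous arrays were read in 1 scan and the other 4 in another, so scan and homozygous genotype cannot be told apart in any comparison below. Negative control spots read 37 and 41.9 in homozygous embryos and 18.7 to 19.7 in the other 4. Stat3 itself differed by 0.43 ± 0.16 (SE) between homozygous and wild-type embryos, with an adjusted p of 0.0886. A changed residue need not alter the transcript, so this does not check the genotype labels. In whole embryos, fewer cells of a type and less RNA per cell cannot be told apart.

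Acetylcholine is made from choline and acetyl-CoA by choline acetyltransferase, the product of Chat. The vesicular transporter Slc18a3 loads it into synaptic vesicles, acetylcholinesterase (Ache) breaks it down in the cleft, and the choline transporter Slc5a7 returns choline to the terminal. Spinal motor neurons, the main cholinergic cells of the young spinal cord, form from Olig2-expressing progenitors. Newly born motor neurons express the homeodomain factors Isl1, Isl2, Mnx1, Lhx3 and Lhx4, and in the mouse a complex of Isl1 and Lhx3 turns on cholinergic genes. Several of these factors also mark other cells, such as sensory neurons (Isl1, Isl2), the pituitary (Isl1, Lhx3, Lhx4) and the pancreas (Isl1, Mnx1).

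Chat and Slc18a3 share a locus in mammals, with the whole of Slc18a3 lying inside an intron at the start of Chat. In RefSeq's table for GRCm38.p6, both genes lie on the minus strand of chromosome 14 and their start sites are 1059 bases apart. Both promoters are shown because Chat is the gene the set was built round and Slc18a3 its neighbour. The 250 bases before the Chat start lie at chr14:32465910-32466159 and those before the Slc18a3 start at chr14:32464851-32465100, both printed 5′ to 3′ on the minus strand. Capitals mark CANNTG, the E-box letters, which read the same on both strands.
Chat: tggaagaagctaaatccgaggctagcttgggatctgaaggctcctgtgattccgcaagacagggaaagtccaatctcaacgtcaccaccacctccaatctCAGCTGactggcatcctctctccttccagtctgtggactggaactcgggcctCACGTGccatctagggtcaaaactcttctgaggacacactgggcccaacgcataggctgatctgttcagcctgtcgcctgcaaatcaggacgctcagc
Slc18a3: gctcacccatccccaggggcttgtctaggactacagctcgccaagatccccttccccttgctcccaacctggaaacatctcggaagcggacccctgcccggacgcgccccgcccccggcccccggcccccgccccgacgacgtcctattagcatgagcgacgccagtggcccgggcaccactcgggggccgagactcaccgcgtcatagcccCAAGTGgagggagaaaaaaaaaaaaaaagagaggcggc

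The Chat window held 2 CANNTG matches at a GC content of 54.8%, and the Slc18a3 window held 1 at 66%, beside a median GC content of 52.4% over all windows. RefSeq's table had a window for all 9 genes, 10 windows in all since Lhx3 has 2, and 7 of these 10 held CANNTG, beside 66.2% of all 32851 windows. TTCNNNGAA, the letters of a STAT site, was found in 0 of the 10 windows and in 7.02% of all windows. The homeodomain letters TAATTA were found in 0 of the 10 and in 4.84% of all. Both of these motifs also read the same on either strand. These matches describe letters in a short window and say nothing of binding.

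Chat was much lower in both homozygous embryos than in the other 4. Its normalized log2 signal was -3.33 and -4.77 in homozygous embryos 1 and 2, 0.76 and -0.19 in heterozygous embryos, and 0.54 and 0.53 in wild-type embryos. As processed signal these are 85.4 and 28.8 units in homozygous embryos, 2008 and 1108 in heterozygous embryos, and 1506 and 1539 in wild-type embryos. The probe was still called well above background on all 6 arrays, with a lowest median spot signal of 80 beside a local background of at most 23. Negative control spots on the homozygous arrays read 37 and 41.9, so the homozygous signal of Chat was dim. The mean difference was -4.58 on the log2 scale between homozygous and wild-type embryos, or 24.0-fold lower, and -4.34 between homozygous and heterozygous embryos, or 20.2-fold lower. Only 0.0773% of the genes tested had a lower difference from wild type, and 7.43% were at least 2-fold lower. Since Chat was chosen for this difference, these values are a description and carry no test. Within genotypes, Chat differed by 1.44 between the homozygous embryos, by 0.95 between the heterozygous embryos and by 0.01 between the wild-type embryos.

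Against this, the heterozygous level of Chat was not distinguishable from wild type. The heterozygous mean was 0.29 ± 0.67 and the wild-type mean 0.53 ± 0.01 (SD, n = 2 each), a difference of -0.25 with a 95% interval of -1.45 to 0.95 and an adjusted p of 1. The interval is wide, reaching 2.73-fold lower and 1.94-fold higher, so a moderate difference in carriers cannot be seen with these embryos. Chat was read by 1 probe in 1 spot per array, so no second probe of it could be set beside these values.

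The other terminal genes of the acetylcholine cycle, all read by dim probes, showed no such difference. Slc18a3, the vesicular acetylcholine transporter next to Chat, had -2.66 and -3.05 in homozygous embryos, -2.62 and -2.97 in heterozygous embryos, and -2.82 and -3.00 in wild-type embryos, and the 3 genotypes overlapped. Its homozygous minus wild type difference was 0.05 ± 0.19 (SE), with a 95% interval of -0.42 to 0.52 and an adjusted p of 0.852. The lower bound of that interval is a 1.33-fold lower signal. As processed signal, Slc18a3 read 136 and 94.7 units in homozygous embryos, 192.6 and 161.1 in heterozygous embryos, and 146.8 and 133.3 in wild-type embryos. It was called well above background on all 6 arrays but was far dimmer than Chat in wild-type embryos, at 1506 and 1539 units. The difference from heterozygous embryos was -0.06, with an interval of -0.53 to 0.41.

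Slc5a7, the choline transporter, had -2.98 and -3.15 in homozygous embryos, -2.92 and -2.87 in heterozygous embryos, and -2.97 and -2.87 in wild-type embryos. Both homozygous values lay below all others, by a small margin. The homozygous minus wild type difference was -0.15 ± 0.13 (SE; 95% interval -0.46 to 0.17; adjusted p = 0.414). A second, dimmer Slc5a7 probe differed by 0.11 (adjusted p = 0.675 over all probes), so the direction of this gene depends on the probe. Both probes were dim, at 88.2 to 172.6 units and 17.8 to 26.6 units over the 6 arrays.

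Ache, the enzyme that ends the acetylcholine signal, had -3.50 and -4.08 in homozygous embryos, -3.14 and -3.24 in heterozygous embryos, and -3.10 and -3.26 in wild-type embryos on its brighter probe. Both homozygous values were the lowest. The difference from wild type was -0.62 ± 0.21 (SE; 95% interval -1.12 to -0.12), which did not pass over all genes (adjusted p = 0.0677), nor did the difference of -0.60 from heterozygous embryos (adjusted p = 0.0796). The second Ache probe had -3.79 and -4.19 in homozygous embryos, -3.80 and -3.92 in heterozygous embryos, and -3.99 and -4.10 in wild-type embryos. On that probe the genotypes overlapped, with a difference from wild type of 0.05 (adjusted p = 0.837), so the 2 Ache probes disagreed. Both were dim, at 46.4 to 134.2 units and 42.9 to 85.4 units over the 6 arrays. Ache is also made by muscle and by red blood cells. The 7 skeletal muscle and end plate genes summed to 13.6 and 15.5 times the array's 75th percentile in homozygous embryos, 9.82 and 8.18 in heterozygous embryos, and 8.17 and 7.05 in wild-type embryos. The 6 erythroid genes summed to 28.0 and 21.6 in homozygous embryos, 15.3 and 22.2 in heterozygous embryos, and 28.1 and 25.5 in wild-type embryos. Their part in the Ache values was not tested.

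**Figure D1:**
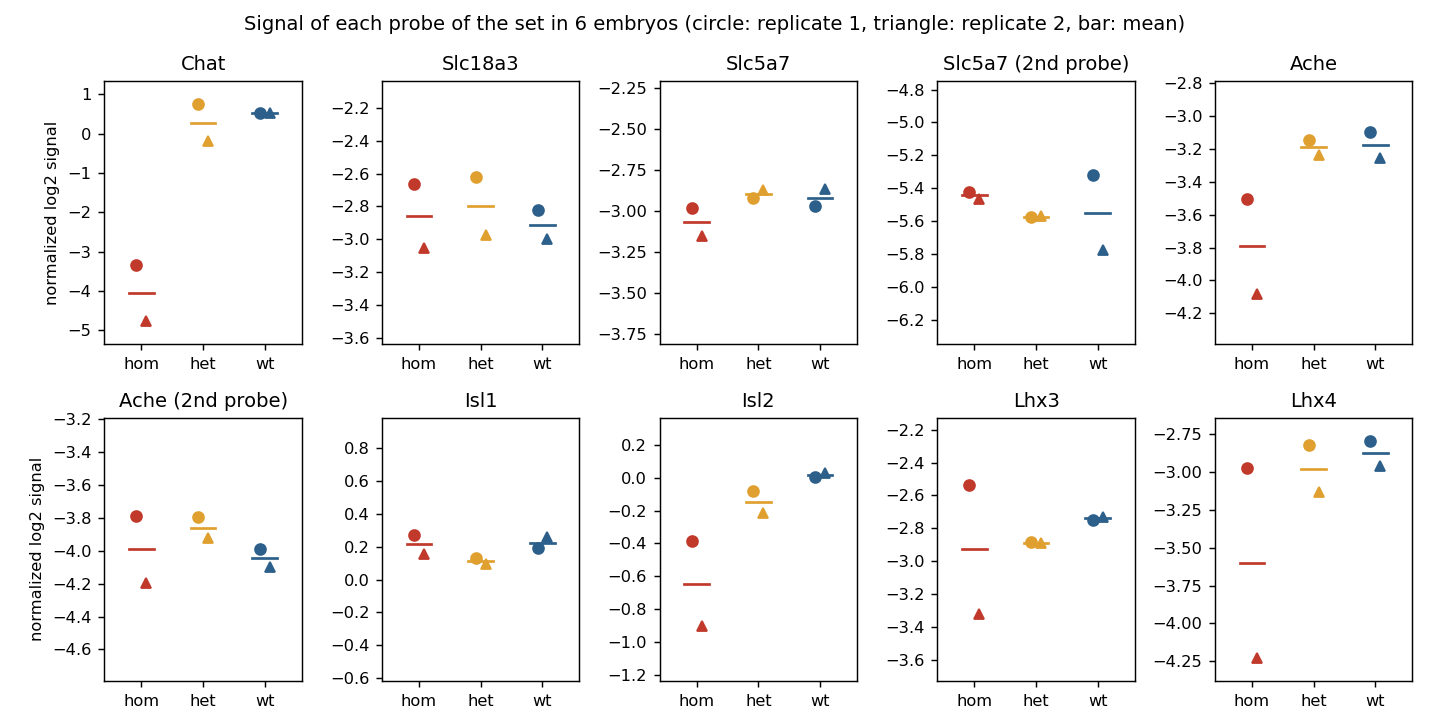
Normalized log2 signal (vertical axis, log2 of the signal over the array's 75th percentile) of the 10 probes in homozygous (hom), heterozygous (het) and wild-type (wt) embryos, with a circle for replicate 1, a triangle for replicate 2 and a bar for the mean. Each panel has its own scale. Chat lies at -3.33 and -4.77 in homozygous embryos and at or above -0.19 in the other 4, while Slc18a3 overlaps between all 3 genotypes.

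Among the transcription factors, Isl1, the LIM homeodomain factor that all new motor neurons express, did not pass in any comparison, with 0.27 and 0.16 in homozygous embryos, 0.13 and 0.10 in heterozygous embryos, and 0.19 and 0.26 in wild-type embryos. The homozygous minus wild type difference was -0.01 ± 0.12 (SE; adjusted p = 0.964), and its 95% interval of -0.31 to 0.29 reaches 1.24-fold lower and 1.22-fold higher. The Isl1 probe was printed in 10 spots per array. The SD over the spots used was 0.05 to 0.06 within an array, which is technical error only, and 1 and 3 spots were set aside as outliers in homozygous embryos 1 and 2, against 0 on the other arrays. Homozygous values lay above both heterozygous values, by 0.10 on average (adjusted p = 0.56).

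**Figure D2:**
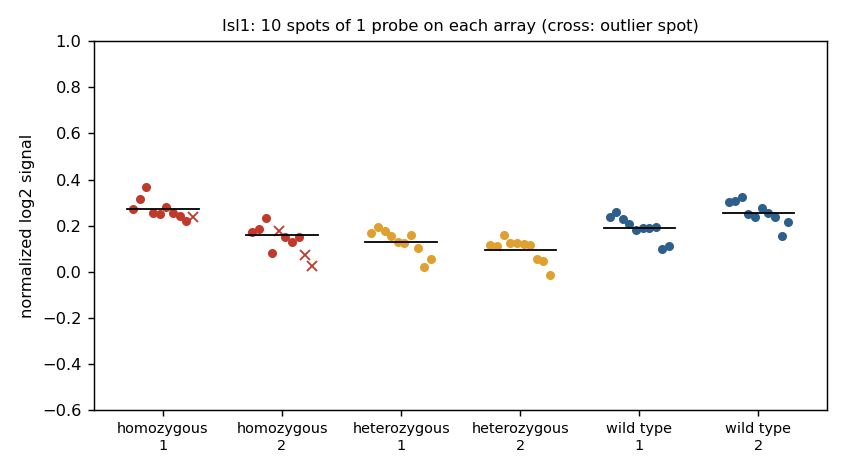
Normalized log2 signal (vertical axis) of the 10 spots of the Isl1 probe on each of the 6 arrays, in order of spot number, with crosses for outlier spots and a line for the mean of the spots used. Array means run from 0.10 in heterozygous embryo 2 to 0.27 in homozygous embryo 1.

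Isl2, its close relative in motor and sensory neurons, was the only one of the 7 measured genes other than Chat that passed the test between homozygous and wild-type embryos. It had -0.39 and -0.90 in homozygous embryos, -0.08 and -0.22 in heterozygous embryos, and 0.00 and 0.03 in wild-type embryos. Both homozygous values lay below all 4 others, and the heterozygous values lay between. Isl2 fell by 0.66 ± 0.19 (SE), or 1.58-fold, against wild type (95% interval -1.12 to -0.20; adjusted p = 0.0446). The difference of -0.50 from heterozygous embryos did not pass (adjusted p = 0.105), and neither did that of -0.16 between heterozygous and wild-type embryos (adjusted p = 1). This call is a narrow one, lost in 8 of 17 other settings. With homozygous embryo 1 alone the difference was -0.40 (adjusted p = 0.0788), and with homozygous embryo 2 alone it was -0.92. In such fits the lone array is assumed to vary like those of the other genotypes. Sensory neurons also express Isl2. Of 8 sensory neuron genes, 3 fell, beside 14.7% of all genes. Among them were Avil, well above background in 1 homozygous embryo, and Runx3, whose other probe differed by 0.01. Dimmer probes of Ntrk2 differed by 0.73 and -1.38 (adjusted p = 0.0135 and 0.00239 over all probes). A dimmer Ntrk3 probe differed by 0.83 (adjusted p = 0.00746 over all probes). The sum over the list was 4.14 and 4.20 in homozygous embryos, 4.48 and 4.08 in heterozygous embryos, and 4.25 and 4.11 in wild-type embryos, as multiples of the 75th percentile. Their part in the Isl2 result was not tested.

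Lhx3 and Lhx4, LIM homeodomain partners of the Islet factors, differed mainly between the homozygous embryos. Lhx3 had -2.54 and -3.32 in homozygous embryos, -2.89 and -2.89 in heterozygous embryos, and -2.75 and -2.73 in wild-type embryos. The homozygous pair thus spans all other values, and its difference from wild type was -0.19 ± 0.25 (SE; adjusted p = 0.591). Lhx4 had -2.97 and -4.23 in homozygous embryos, -2.82 and -3.13 in heterozygous embryos, and -2.79 and -2.96 in wild-type embryos. Homozygous embryo 1 was within the range of the heterozygous embryos, and homozygous embryo 2 stood apart. The Lhx4 signal was dim, at 109.7 and 41.9 units in homozygous embryos 1 and 2. The Lhx4 difference from wild type was -0.73 ± 0.39 (SE), with an interval of -1.66 to 0.21 (adjusted p = 0.197), and without homozygous replicate 2 it was -0.10.

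**Figure D3:**
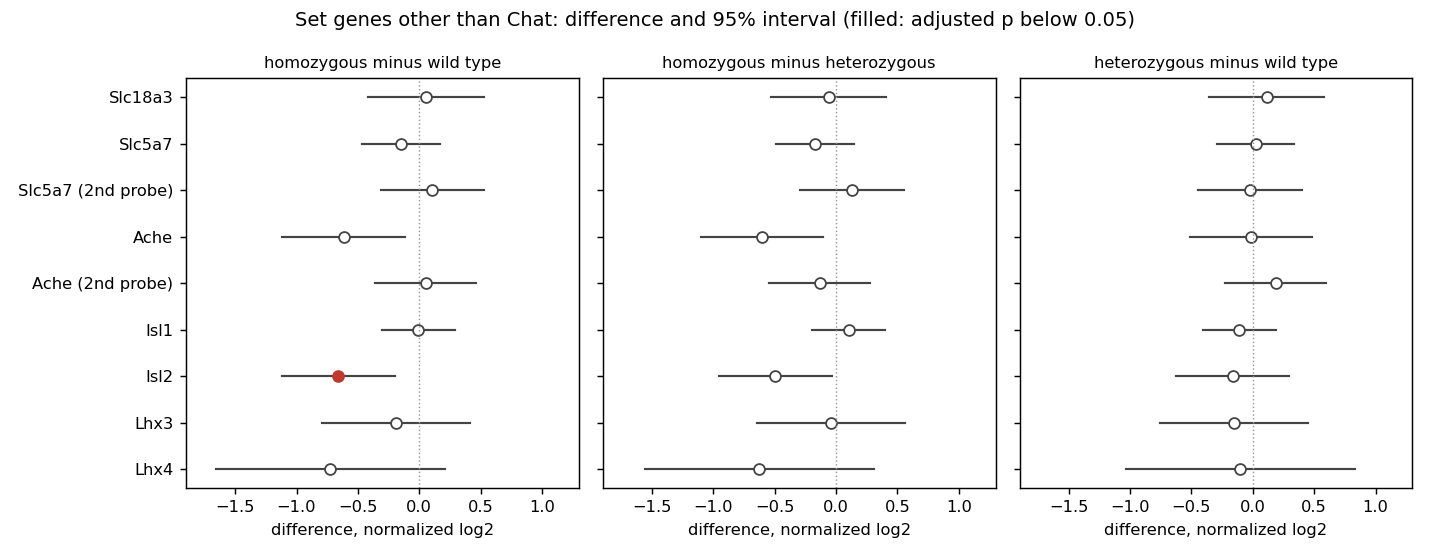
Difference on the normalized log2 scale (horizontal axis) with its 95% interval for the 9 probes of the set other than that of Chat, in homozygous minus wild type, homozygous minus heterozygous and heterozygous minus wild type. The filled point, Isl2 at -0.66 in homozygous minus wild type, is the only one past an adjusted p of 0.05, and all heterozygous intervals cover 0.

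Counted together, 1 of the 7 measured genes other than Chat passed between homozygous and wild-type embryos, where 29% of all genes tested passed and 14.7% were lower. Both homozygous arrays lay below both wild-type arrays in 5 of 8 genes (Chat, Slc5a7, Ache, Isl2 and Lhx4) and above in 0, beside 30.2% of all genes below and 39.4% above. The median difference over the 8 genes was -0.40, beside 0.08 over all genes. Chat, whose place in the set rests on this comparison, is included in these last counts, so nothing is read from them.

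Between homozygous and heterozygous embryos, none of the 7 genes besides Chat passed, beside 24% of all genes. Arrays lay apart and lower in 4 genes (Chat, Slc5a7, Ache and Isl2), beside 28.3% of all genes, and apart and higher in Isl1, beside 35.7%. These comparisons share the homozygous arrays and are not independent. Between heterozygous and wild-type embryos, 0 of the 8 genes passed limma's test, as did 0% of all genes. At an unadjusted p below 0.05, this comparison held 0 of the 8 and 552 genes in all (2.25%). Both heterozygous arrays lay below both wild-type arrays in Isl1, Isl2 and Lhx3, beside 12% of all genes. The heterozygous differences ran from -0.25 for Chat to 0.11 for Slc18a3, with a median of -0.11.

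The 2 homozygous embryos did not give the same picture. All 10 probes were lower in homozygous embryo 2 than in homozygous embryo 1, beside 55.5% of all genes. The corresponding counts were 7 of 10 between the heterozygous embryos, beside 60.5% of all genes, and 6 of 10 between the wild-type embryos, beside 52.4%. The gap in the homozygous pair was 1.44 for Chat, 1.26 for Lhx4, 0.78 for Lhx3, 0.58 for the brighter Ache probe and 0.52 for Isl2, against 0.12 for Isl1. In homozygous embryo 2, the signal was 28.8 units for Chat, 41.9 for Lhx4 and 46.4 for the brighter Ache probe. Negative control spots on that array read 41.9. Lhx3 read 78.7 units there and Isl2 420.1. The part of low signal in these gaps was not tested. The median gap over all genes was 0.24 in the homozygous pair, 0.17 in the heterozygous pair and 0.11 in the wild-type pair. Without homozygous replicate 1, the higher of the pair, 4 genes besides Chat passed against wild type, Ache at -0.90, Isl2 at -0.92, Lhx3 at -0.58 and Lhx4 at -1.35. These values are those of homozygous embryo 2 alone, with the spread taken from the other genotypes. With any other single array left out, 0 genes besides Chat passed.

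Genes with roles next to those of the set were described by companion lists, each to be read beside the 14.3% of all genes that were higher and the 14.7% that were lower. The 11 genes that move, phosphorylate or hydrolyse choline and its esters, or anchor the esterase, held 0 that passed in either direction, with a median difference from wild type of -0.06. The smallest p-values there belonged to Pcyt1b of phosphatidylcholine synthesis (-0.43; adjusted p = 0.0663), the acetylcholinesterase anchor Prima1 (-0.56; adjusted p = 0.0719) and the choline kinase Chkb (0.37; adjusted p = 0.0857).

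Of 12 measured nicotinic receptor subunits, 2 rose and 1 fell in homozygous embryos, with a median of 0.04. Chrna3, a subunit of receptors in autonomic ganglia, had -5.18 and -5.97 in homozygous embryos, -4.20 and -3.78 in heterozygous embryos, and -3.69 and -3.59 in wild-type embryos. It fell by 1.94 ± 0.28 (SE; adjusted p = 0.00531), and only 1 of the homozygous embryos had a signal well above background. Its usual partner Chrnb4 went the other way, by 1.01 (adjusted p = 0.00807), with -4.20 and -4.47 in homozygous embryos, -4.94 and -4.63 in heterozygous embryos, and -5.38 and -5.32 in wild-type embryos. Chrna6 also rose, by 0.63 (adjusted p = 0.0279). Its signal was dim, at 23.2 and 25.8 units in homozygous embryos, 25.7 and 23.4 in heterozygous embryos, and 19.7 and 20.7 in wild-type embryos. Before scaling, homozygous and heterozygous embryos were thus alike. Chrnb4 was dim as well, at 24.85 to 50.84 units. Of the 5 muscarinic receptors only Chrm2 passed (adjusted p = 0.0487). It was not well above background in homozygous embryos, so it is given as at least 1.19-fold lower there.

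The 9 neural tube progenitor genes, not all of them of the motor neuron domain, had a median difference of 0.47, with 3 higher and 1 lower. Neurog2, a proneural factor, rose by 1.06 ± 0.25 (SE; adjusted p = 0.024) and Nkx6-1, a patterning factor of the ventral neural tube, by 0.88 ± 0.21 (SE; adjusted p = 0.0245), and the dorsoventral factor Dbx1 rose by 0.55 (adjusted p = 0.0394). Irx3, which marks progenitors dorsal to the motor neuron domain, fell by 0.92 ± 0.18 (SE; adjusted p = 0.0139). Olig2, the defining factor of motor neuron progenitors, had -4.41 and -4.23 in homozygous embryos, -4.39 and -4.96 in heterozygous embryos, and -5.73 and -4.87 in wild-type embryos. Its difference of 0.97 did not pass (adjusted p = 0.063), and it is named here after its values were seen. Olig2 was dim, at 40.4 and 41.7 units in homozygous embryos, 56.5 and 40.5 in heterozygous embryos, and 19.5 and 36.6 in wild-type embryos. Among the other genes of the list that did not pass, Olig1 differed by 0.47 and Pax6 by 0.38. Nkx6-2 and Nkx2-2 went the other way, by -0.47 and -0.37. Summed over the 9 genes, the signal was 3.55 and 3.45 times the 75th percentile in homozygous embryos, 3.83 and 3.18 in heterozygous embryos, and 3.40 and 3.81 in wild-type embryos.

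Among 16 other LIM homeobox, Ldb and Lmo genes with a few interneuron factors, 3 rose and 1 fell, with a median of -0.11. Lhx6, a factor of forebrain interneurons and the facial mesenchyme, fell by 1.88 ± 0.16 (SE; adjusted p = 0.00106), and its second probe was lower by 0.74 (adjusted p = 0.0259 over all probes). Lhx9 rose by 0.71 (adjusted p = 0.0171) Lmo3 by 1.09 (adjusted p = 0.0198) and Lhx2 by 0.79 (adjusted p = 0.026). The other Lhx9 probes differed by 0.67 and -0.05. A dimmer Lmx1b probe differed by -0.60 (adjusted p = 0.0287 over all probes), while its brightest, at -0.45, did not pass.

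Of 19 measured genes of motor columns and pools, 1 rose and 2 fell on the brightest probe, with a median of -0.03. A dimmer Foxp2 probe differed by -1.10 (adjusted p = 0.00319 over all probes), against 0.27 on its brightest. Foxp1, which sets the lateral motor column, fell by 1.22 ± 0.16 (SE; adjusted p = 0.00364) on its brightest probe, whereas its other probes differed by 0.01 and 0.24. Hoxc10, a lumbar Hox gene, fell by 0.97 (adjusted p = 0.0442), and the orphan nuclear receptor Nr2f2 rose by 0.69 (adjusted p = 0.00901). Of 20 adhesion, growth factor and peptide genes of motor neurons, 0 rose and 3 fell on the brightest probe, with a median of -0.01. Dimmer probes of Robo2 and Calca differed by -1.60 and -0.75 (adjusted p = 0.00425 and 0.0181 over all probes). The brightest probes of these genes differed by -0.01 and 0.04. Cadm1, an adhesion molecule of neurons and other cells, had -2.64 and -2.66 in homozygous embryos, -0.76 and -0.62 in heterozygous embryos, and -0.71 and -0.75 in wild-type embryos. It fell by 1.92 ± 0.12 (SE; adjusted p = 0.000587). Slit2, an axon repellent, fell by 0.67 (adjusted p = 0.0321), and Lifr, a receptor for a cytokine family that supports motor neurons and activates STAT3, by 0.57 (adjusted p = 0.0256), although its other probes differed by 0.11 and 0.26. Of 7 genes of branchial and visceral motor neurons, Phox2a rose by 0.69 (adjusted p = 0.0379), while Tbx2 fell by 1.42 (adjusted p = 0.0116) and Gata3 by 0.72 (adjusted p = 0.0153). A dimmer Tbx20 probe differed by -0.75 (adjusted p = 0.0369 over all probes), against 0.08 on its brightest.

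Of 12 pan-neuronal genes, 0 rose and 2 fell, a share near the 14.7% of all genes that were lower. The RNA-binding protein Elavl3 fell by 1.87 ± 0.27 (SE; adjusted p = 0.00575) and the neurofilament Nefm by 0.54 (adjusted p = 0.0295), and the median of the list was 0.13. The list summed to 78.4 and 64.4 times the 75th percentile in homozygous embryos, 68.8 and 61.8 in heterozygous embryos, and 62.7 and 67.4 in wild-type embryos. Genes of other transmitters had medians of 0.22 over 7 glutamatergic genes, 0.23 over 8 GABAergic and glycinergic genes and 0.45 over 11 monoaminergic genes. In the glutamatergic list, Barhl1 rose by 1.31, although its other probe differed by 0.09. Barhl2 differed by -2.41, Slc17a7 by -1.11 and Lbx1 by -0.72. These differences on the brightest probes all passed, with Barhl2 and Slc17a7 well above background in only 1 homozygous embryo. Lbx1 is not a marker of glutamatergic neurons alone. In the monoaminergic list 4 genes rose, beside 14.3% of all genes, and 0 fell on the brightest probe, although a second probe of Slc18a2 differed by -1.33 (adjusted p = 0.00517 over all probes). Among the 4, Nr4a2 had another probe that differed by 0.14. Tph1 read 1.51-fold higher, but was well above background in only 1 homozygous embryo and in 0 wild-type embryos. The size of its difference is therefore not known. There Th, the first enzyme of dopamine synthesis, rose by 0.65 (adjusted p = 0.0212) and the dopamine transporter Slc6a3 by 0.72 (adjusted p = 0.0249). For other tissues that express members of the set, Pomc was the 1 of 5 pituitary genes to pass and fell by 0.72 (adjusted p = 0.0198). The notochord gene T was the 1 of 6 pancreas and notochord genes to pass and fell by 1.61 (adjusted p = 0.00212), and 1 homozygous embryo had no signal well above background. Of the muscle list, Rapsn, which clusters acetylcholine receptors at the end plate, rose by 1.45 ± 0.19 (SE; adjusted p = 0.00389). Ckm rose by 0.88 and Myog by 0.59. Ckm had -3.27 and -3.11 in homozygous embryos, -2.75 and -3.19 in heterozygous embryos, and -3.99 and -4.15 in wild-type embryos. Its heterozygous values thus also lay above wild type. Of the erythroid list 0 passed. In heterozygous against wild-type embryos, 0 genes of any list passed.

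**Figure D4:**
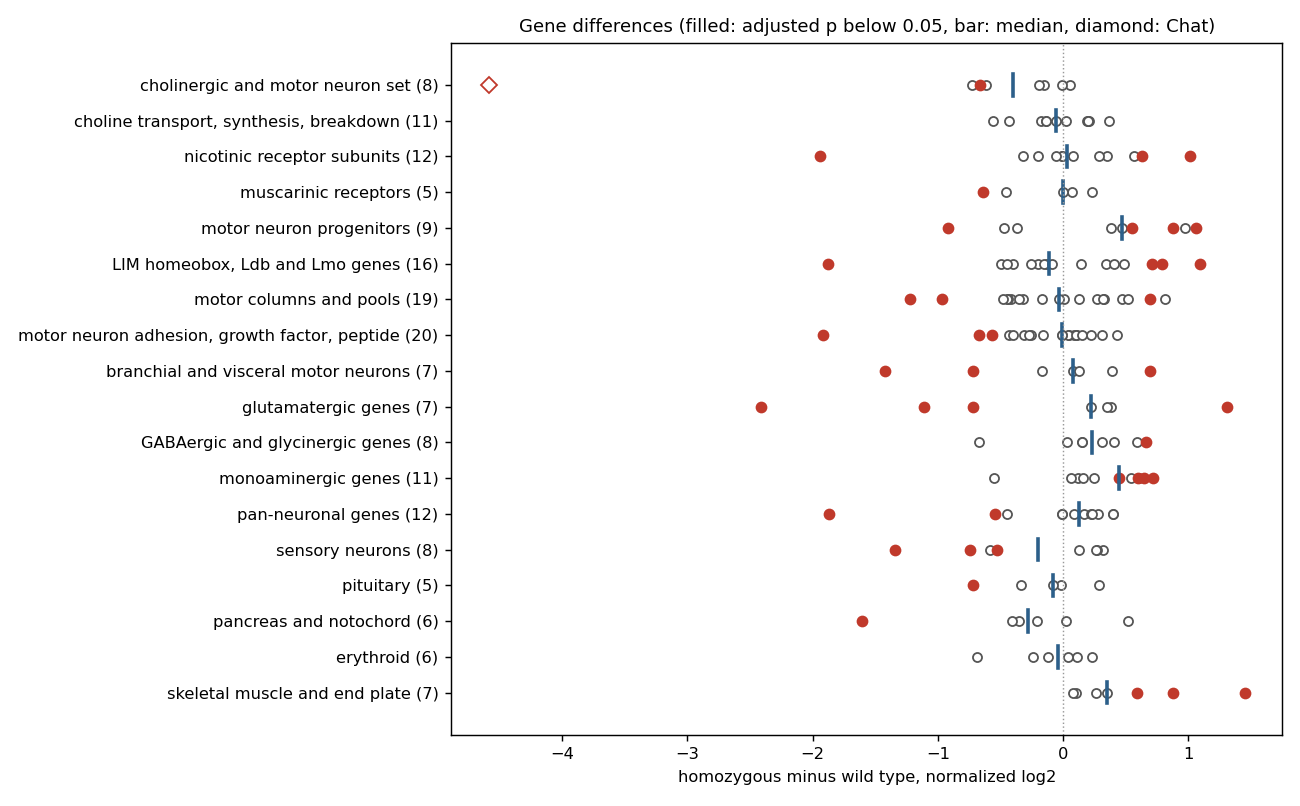
Difference between homozygous and wild-type embryos on the normalized log2 scale (horizontal axis) for each measured gene of the set and of the 17 companion lists, with the number of genes in brackets, filled points for an adjusted p below 0.05 and bars for medians. The diamond is Chat at -4.58, which was not tested. Apart from it, no gene of any list lies below Barhl2 at -2.41.

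None of the 5 genes whose pattern over the 6 arrays lay nearest to that of Chat belongs to the acetylcholine cycle. Each gene was taken as its deviation from its own wild-type mean, and the Euclidean distance to Chat was computed for 16114 genes with a symbol. The nearest were the cation channel gene Trpm1 at 0.32, the receptor gene Notch1 at 0.45, the kinase anchor gene Akap7 at 0.50, the monocarboxylate transporter gene Slc16a7 at 0.62 and the Schlafen gene Slfn9 at 0.89. Their homozygous minus wild type differences ran from -4.68 for Trpm1 to -4.27 for Slc16a7. As the order was found on the same arrays, it is a description with no test.

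In this neighbourhood other probes of the same gene often differed. A second Trpm1 probe differed by 0.58 and the 2 other Akap7 probes by 0.17 and 0.41, while second probes of Notch1 and Slfn9 differed by -1.60 and -3.36. Slc16a7, like Chat, had only 1 probe. Within the set, Lhx4 lay nearest to Chat, at 5.48 with 995 genes nearer, followed by Isl2 at 5.62 and Ache at 5.69. Slc18a3 lay farthest, at 6.64 with 6313 genes nearer.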

How the data were processed

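The deposited intensity values come from 1-colour scanner files made with Agilent Feature Extraction 11.0.1.1, per the file headers, which subtracted background and corrected trends on each array separately and applied no scaling across arrays. A deposited table of the authors' log2 values, with a median of 6.72 on each array and a normalization not given in the sources used here, served as an alternative. Control and outlier spots were left out, spots of a probe were averaged, and log2 intensity minus the array's 75th percentile was used. No spot was saturated. A probe was kept if both arrays of some genotype had it well above background (29910 of 39429), and each named gene was represented by its brightest kept probe. Each kept probe without a symbol (12195 before this filter) entered as a gene of its own. Symbols came from RefSeq's GRCm38.p6 gene table by accession (27234 probes), used for names and neighbours only, since the array was annotated to mm9.

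All 6 arrays entered 1 model of genotype in limma 3.58.1 (R 4.3.3), with 3 residual and 3.33 prior degrees of freedom, tested beforehand on simulated data. P-values were adjusted by Benjamini-Hochberg over all genes of a comparison at 0.05. A gene not well above background in a genotype has only a bound, computed against the dimmest signals well above background. For Tph1 that value equalled the fitted fold of 1.51, so it is not given as a bound. The precision is limited by 2 arrays per genotype. Genes named are the set, Stat3, up to 3 genes of each companion list with the smallest p between homozygous and wild type, and the 5 nearest to Chat. Genes beyond this rule (Olig2, Olig1, Pax6, Nkx6-2, Nkx2-2, Dbx1, Lhx2, Lmx1b, Foxp2, Robo2, Calca, Tbx20, Ntrk2, Ntrk3, Lbx1, Nr4a2, Slc18a2) were named after their values were seen. The members and lists were chosen with earlier results of these data known. Alternatives covered background correction, normalization, filter, probe choice, replicates and samples fitted, and the planned normexp correction used the median spot signal. The test of Chat in homozygous comparisons enters only the counts of genes passing. Some results of the companion lists are not reported here.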

Additional observations from a re-analysis of the deposited data

How the results depend on the processing

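Counts of the set in homozygous comparisons include Chat, chosen on this difference. Against wild type, the 2 genes counted (Chat and Isl2) became 1 with no filter on dim probes, in a fit of only the 2 genotypes and with the crossed block below (Isl2 lost), and 0 on second brightest probes, which 2 genes have. Leaving out 1 array gave 1 to 5, with 1951 to 8844 genes in all (2246 and 1951 without wild type replicates 1 and 2). Against heterozygous, they became 2 after normexp with the 75th percentile and 0 on second probes (1 to 4 without 1 array, 1692 to 7814 genes in all, with 1692 and 2493 without heterozygous replicates 1 and 2 and 3255 without either wild type replicate). Genes passing against wild type were 971 on second probes. Against heterozygous they were 11345 after that normexp, 760 on second probes and 3255 with 2 genotypes. Heterozygous against wild type gave 0 to 6 without 1 array (3 and 6 without wild type replicates 1 and 2). That normexp moved the median of all genes to 0.19 and 0.24 and the share higher from 49.2% to 67.6% against wild type and from 44.3% to 75.6% against heterozygous.

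Chat stayed lower in homozygous than in wild-type embryos in all 17 alternatives, from -5.30 without homozygous replicate 1 to -3.41 after that normexp. No difference that passed turned its sign; others did, and the cause was not tested. Against wild type, Isl1 was 0.01 and 0.02 after normexp with the 75th percentile and with quantiles, Lhx3 0.00 after normexp with the 75th percentile, and second probes gave 0.11 (Slc5a7) and 0.05 (Ache). For homozygous minus heterozygous, that normexp gave 0.08 (Slc18a3), 0.06 (Slc5a7) and 0.20 (Lhx3), Lhx3 was 0.07 after normexp with quantiles and 0.02 by quantiles and by the deposited values, and Slc5a7 0.13 on its second probe. For heterozygous minus wild type, Slc5a7 was -0.09 and -0.05 after the 2 normexp settings, -0.02 by quantiles, the deposited values and its second probe, and 0.00 as a probe mean, and Ache 0.09 as a probe mean and 0.19 on its second probe. Without 1 array, homozygous minus wild type ran from -0.14 to 0.25 (Slc18a3), -0.07 to 0.05 (Isl1) and -0.58 to 0.20 (Lhx3). Homozygous minus heterozygous ran from -0.25 to 0.14 (Slc18a3), -0.43 to 0.35 (Lhx3) and -1.25 to 0.00 (Lhx4). Heterozygous minus wild type ran from -0.72 to 0.22 (Chat), -0.06 to 0.29 (Slc18a3), -0.03 to 0.08 (Slc5a7), -0.10 to 0.07 (Ache) and -0.26 to 0.06 (Lhx4).

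Samples of the same number did not deviate together in every pair (correlations of 0.25, -0.16 and 0.01). With 1 difference per genotype, this cannot settle whether the numbers pair the samples, and the main model has no block. With a replicate block, 6890, 0 and 5624 genes passed for homozygous minus wild type, heterozygous minus wild type and homozygous minus heterozygous, and Ache passed against wild type (adjusted p = 0.0474). With the homozygous numbers crossed, chosen after seeing the data, the block gave 5449, 0 and 4181. The small number of arrays limits the precision. In fits that leave 1 array of a genotype, that array is assumed to vary like the others.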
